A study of Homo sapiens with 6 samples.

Results

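Amino acid transporters of 7 solute carrier families (SLC1, SLC3, SLC6, SLC7, SLC36, SLC38 and SLC43) were examined in NCI-H1299 cells treated with norepinephrine (NE). Members were taken by symbol, as the rows of the table named SLC1A, SLC3A, SLC6A, SLC7A, SLC36A, SLC38A or SLC43A and a number, which gave 39 of the 26025 genes listed. Of these, 28 had a mean of at least 10 normalized counts over the 6 libraries and are called expressed here, and these were tested among 15013 genes that passed the same minimum. The NCI-H1299 line comes from a human non-small cell lung cancer. The NE group was 3 libraries of cells kept with 10 µM NE for 48 h, and the Ctrl group was 3 libraries of cells kept as long without NE. Cells of both groups were first starved, by the study's account, in DMEM for 8 to 12 h, and were then treated in RPMI-1640 with 2% serum instead of the 10% used for growth. The sample titles name the Ctrl vehicle DMSO whereas the treatment protocol names PBS. No label says that the libraries of a group came from separate cultures, so the p-values measure the spread between these libraries, which may be technical.

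Amino acid transporters carry amino acids across the plasma membrane and the membranes of lysosomes and vesicles, and each family couples transport in its own way. Most SLC1, SLC6 and SLC38 carriers use the sodium gradient, some SLC36 carriers use protons, and most SLC7 carriers are exchangers whose light chain is held at the membrane by a heavy chain of the SLC3 family. In cancer cells SLC38A1 and SLC38A2 load the cell with glutamine and other small neutral amino acids, SLC1A5 exchanges glutamine, and the SLC7A5-SLC3A2 pair lets glutamine out in return for leucine and other large neutral amino acids, which feed mTORC1. SLC7A11 brings in cystine for glutathione.

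The libraries held 16852751 to 17979206 reads on genes. Each deposited value is a read count over the size factor of its library, and is called a normalized count here. Ctrl replicate 3 stood apart, with 7305 genes at 0 against 4829 and 4833 in the other Ctrl libraries and 3954 to 4416 in the NE libraries, and calls of members that turn on it are given with and without it. Ctrl replicates 1 and 2 were close, with a chi-square between their read counts of 2.86 per degree of freedom. It was 45.4 and 49.5 for pairs with Ctrl replicate 3, and 5.37 to 24.3 between NE libraries. A fit without Ctrl replicate 3 thus rests on 2 close Ctrl libraries, whose spread may understate that of the group. Among the marker genes, KRT8 (means of 12452 and 5907 in Ctrl and NE libraries), KRT18 (22472 and 7248) and VIM (66719 and 51194) were high in every library and lower in the NE libraries (log2 differences of -1.06, -1.62 and -0.38, adjusted p of 0.000604, 8.24e-05 and 0.0462). The other mesenchymal markers, CDH2 (0.64, adjusted p = 0.00172), FN1 (0.77, adjusted p = 0.000458) and ZEB1 (0.61, adjusted p = 0.0354), were higher, and the part of these shifts in the transporter results was not tested. The epithelial markers KRT19, EPCAM and CDH1 stayed under 10 normalized counts. The lung lineage markers were near 0, with 2 of 4 listed and a summed level of 0 to 3.14 in Ctrl and 0 to 3.87 in NE libraries. Immune markers were also near 0, with 2 of 4 listed and sums of 0 to 4.15 and 0.914 to 1.98. All 3 endothelial markers summed to 36.7 to 52.9 in Ctrl and 22.3 to 51.4 in NE libraries, and all 4 fibroblast markers to 23.5 to 41.5 and 19.2 to 29.6, so neither sum separated the groups. COL1A1, the only fibroblast marker past the minimum mean, read 27.2, 19.7 and 23.5 in Ctrl and 8.89, 7.75 and 11.0 in NE libraries. Its log2 difference was -1.26 (adjusted p = 0.0251), and it passed the minimum only through its Ctrl libraries.

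Among the expressed members, 3 passed both an adjusted p under 0.05 (limma, Benjamini-Hochberg over all tested genes) and an absolute log2 difference of at least 1. SLC38A2 and SLC6A17 were higher in the NE libraries and SLC7A5 was lower. These 3 were 10.7% of the 28 members, beside 14.0% of all genes tested, where 7.47% were higher and 6.55% lower. By the adjusted p alone, 7 members rose (SLC38A2, SLC38A1, SLC6A17, SLC7A11, SLC7A2, SLC36A4 and SLC1A1), 6 fell (SLC7A5, SLC3A2, SLC1A5, SLC43A2, SLC38A10 and SLC7A6) and 15 did not pass. This was 46.4% of the members against a background of 50.1%, made of 24.6% higher and 25.5% lower genes. The members were thus called about as often as other genes, and the text below turns on which of them moved and by how much. The median log2 difference was 0.06 over the 28 members and 0.01 over all genes tested.

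**Figure D1:**
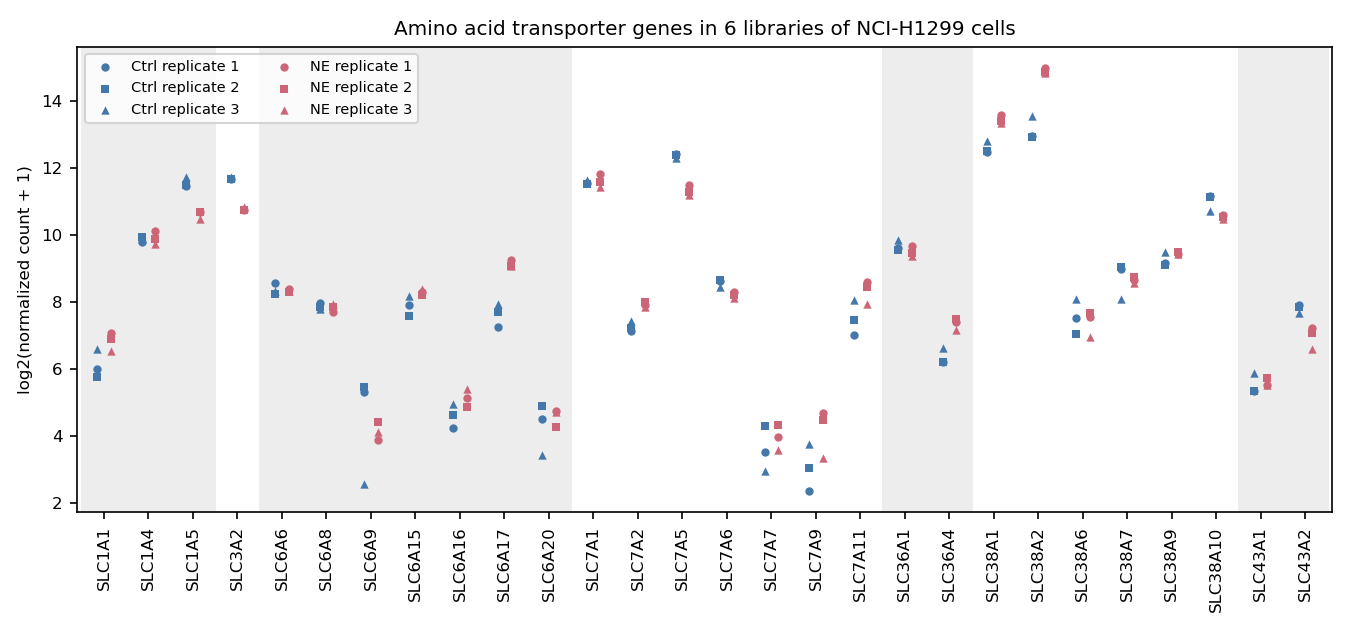
Level of each of the 28 expressed transporter genes in each library, as log2(normalized count + 1), with Ctrl in blue, NE in red, a marker shape per replicate and shading by family. The NE points of SLC38A2, SLC38A1 and SLC6A17 lie above all Ctrl points, those of SLC7A5, SLC3A2 and SLC1A5 lie below them, and the Ctrl replicate 3 triangle is often apart from the other Ctrl points.

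The promoters of 4 members are shown because these genes carry the findings: SLC38A2 and SLC6A17, which rose, and SLC7A5 and SLC3A2, which encode a transporter pair and fell. Each line holds the 250 bases before the RefSeq start of the gene (GRCh38.p14), 5′ to 3′ on the strand of the gene. Capitals mark the letters of a searched motif on either strand, which are the CRE core TGACG (read CGTCA on the other strand), the E-box CACGTG and the antioxidant response element TGACNNNGC. The windows are chr12:46372774-46373023 on the minus strand for SLC38A2, chr1:110150244-110150493 on the plus strand for SLC6A17, chr16:87869508-87869757 on the minus strand for SLC7A5 and chr11:62881449-62881698 on the plus strand for SLC3A2. The last window lies inside the SLC3A2 gene as GENCODE v44 draws it, downstream of its outermost start.
SLC38A2: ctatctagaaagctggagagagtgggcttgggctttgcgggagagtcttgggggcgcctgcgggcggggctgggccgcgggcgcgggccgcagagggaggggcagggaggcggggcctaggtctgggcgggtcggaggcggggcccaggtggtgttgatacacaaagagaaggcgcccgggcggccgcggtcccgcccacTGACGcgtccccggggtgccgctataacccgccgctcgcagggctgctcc
SLC6A17: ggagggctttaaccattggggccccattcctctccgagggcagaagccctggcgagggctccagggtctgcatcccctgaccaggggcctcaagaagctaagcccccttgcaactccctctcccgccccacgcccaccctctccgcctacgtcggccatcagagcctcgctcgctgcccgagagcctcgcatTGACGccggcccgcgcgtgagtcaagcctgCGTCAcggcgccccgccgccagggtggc
SLC7A5: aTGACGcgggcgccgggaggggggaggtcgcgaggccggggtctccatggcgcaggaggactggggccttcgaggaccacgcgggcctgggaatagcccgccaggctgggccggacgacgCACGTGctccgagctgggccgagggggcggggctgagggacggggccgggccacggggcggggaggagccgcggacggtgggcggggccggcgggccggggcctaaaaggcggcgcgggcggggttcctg
SLC3A2: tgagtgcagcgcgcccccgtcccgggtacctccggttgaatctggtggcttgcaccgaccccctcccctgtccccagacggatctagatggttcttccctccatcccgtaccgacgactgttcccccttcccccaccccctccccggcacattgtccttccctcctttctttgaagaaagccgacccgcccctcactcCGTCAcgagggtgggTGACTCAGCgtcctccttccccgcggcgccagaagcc

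The CRE core, a part of the full site bound by CREB and related factors, lay 50 to 46 bases before the start of SLC38A2. SLC6A17 held it at 58 to 54 and at 28 to 24 bases before the start, SLC7A5 at 249 to 245 and SLC3A2 at 52 to 48. SLC7A5 also held the E-box, the letters bound by MYC-MAX, CLOCK-BMAL1 and other factors, at 130 to 125 bases before the start. SLC3A2 held the antioxidant response element, the site of NRF2, at 37 to 29. Promoters were found for 33 of the 39 members. The core was in 13 of them (39.4%) and in 21.7% of 27305 promoters of the same length. It was in 3 of the 5 promoters of members that rose, in 4 of the 6 of members that fell and in 5 of the 13 of expressed members that did not pass, so members of both directions held it. The full CRE TGACGTCA was in 0 of 33 member promoters, against 1.77% of all promoters. The ATF4 and C/EBP element TGATGNAA was in 1 of 33 (3.03%, against 3.19%). The E-box was in 4 of 33 (12.1%, against 6.49%) and the antioxidant response element in 4 others (12.1%, against 11%). The motifs overlap in part, since an antioxidant response element that reads TGACG also holds the core. These are letter matches in a short window, and binding was not measured.

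The SLC38 family had 9 listed members, of which 6 were expressed, and it held the transporter transcripts that were highest after NE. SLC38A2 (SNAT2), a sodium-coupled carrier of small neutral amino acids that cells are known to raise when amino acids are short, read 7948, 7879 and 12008 normalized counts in the Ctrl libraries. In the NE libraries it read 32564, 30348 and 29379.9. All NE libraries lay far above all Ctrl libraries, and Ctrl replicate 3 was the nearest of the Ctrl libraries to them. The means were 9279 ± 2364 and 30764 ± 1633 (SD, n = 3 each), a 3.32-fold higher level. The log2 difference was 1.76 (SE 0.16, 95% interval 1.40 to 2.12, adjusted p = 0.000102). Since the RNA is from bulk cultures, more cells that make a transcript and more transcript per cell cannot be told apart. In hg38 it spans 46358188 to 46372773 of chromosome 12, minus strand.

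SLC38A1 (SNAT1), its close relative and also a glutamine carrier, spans 46183063 to 46270017 of the same strand. It read 5770, 5889 and 7169 normalized counts in Ctrl and 12419, 10888 and 10556 in NE libraries. The groups did not overlap, and the NE mean was 1.80-fold higher (log2 difference 0.85, SE 0.12, adjusted p = 0.000551). The change of SLC38A2 was thus larger than that of SLC38A1 in these libraries. The ratio of SLC38A2 to SLC38A1 normalized counts per length was 2.12, 2.06 and 2.58 in the Ctrl libraries and 4.03, 4.29 and 4.28 in the NE libraries. This ratio was chosen after its genes' values were seen and was not tested.

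SLC38A10, a less studied member of the family, went the other way, with 2290.3, 2258 and 1678 normalized counts in Ctrl and 1552, 1507 and 1419 in NE libraries. Ctrl replicate 3 lay close to the NE libraries, though the groups did not overlap. Its log2 difference was -0.46 (SE 0.14, adjusted p = 0.0188), which no longer passed without any 1 of Ctrl replicates 1 and 2 and NE replicates 2 and 3 (adjusted p of 0.0609 to 0.078), and after a correction for GC content it was 0.15 (adjusted p = 0.197), so both its direction and its call depended on that correction. With all libraries, the other expressed SLC38 members did not pass. SLC38A9, the lysosomal arginine sensor upstream of mTORC1, had a log2 difference of 0.21 (adjusted p = 0.209), and without Ctrl replicate 3 it passed, at 0.33 (adjusted p = 0.00877). SLC38A7, which exports glutamine from lysosomes, had -0.04 (adjusted p = 0.904), and without Ctrl replicate 3 it also passed, at -0.351 (adjusted p = 0.0134). SLC38A6 had -0.17 (adjusted p = 0.629), and 0.0901 (adjusted p = 0.742) without that library. SLC38A4, SLC38A5 and SLC38A8 were under the minimum mean, and the highest single value among all 11 unexpressed members was the 7.91 normalized counts of SLC38A8 in NE replicate 1.

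The SLC7 family had 10 listed members, 7 expressed, and its members moved in both directions. SLC7A5 (LAT1), the light chain that exchanges leucine and other large neutral amino acids, fell. It read 5476, 5351 and 5064 normalized counts in Ctrl and 2874, 2523 and 2336 in NE libraries, with means of 5297 ± 211 and 2577 ± 273 (SD, n = 3 each). The NE libraries all lay well under the Ctrl libraries, and the level was 2.06-fold lower. The log2 difference was -1.04 (SE 0.11, 95% interval -1.28 to -0.80, adjusted p = 0.000159). The interval spans the minimum of 1, so the gene passed the fold criterion narrowly. It spans 87830023 to 87869507 of chromosome 16, minus strand.

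SLC3A2 (4F2hc, the CD98 heavy chain), the only SLC3 member listed and the partner of SLC7A5, SLC7A6, SLC7A7 and SLC7A11, spans 62856004 to 62888880 of chromosome 11, plus strand. Its Ctrl libraries read 3312, 3251 and 3419.98 normalized counts and its NE libraries 1720.4, 1711 and 1821. The spread within each group was small beside the gap between them, and the level was 1.90-fold lower (log2 difference -0.93, SE 0.09, adjusted p = 0.000145). The ratio of SLC3A2 to SLC7A5 per length was 0.451, 0.453 and 0.503 in Ctrl and 0.446, 0.506 and 0.581 in NE libraries. These ranges overlapped, so the transcripts of both chains of the leucine exchanger were lower by similar amounts. The pair was chosen after its values were seen, and the ratio was not tested.

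SLC7A11 (xCT), the cystine-glutamate exchanger that also needs SLC3A2, had 128, 176 and 265 normalized counts in Ctrl and 387, 352 and 246 in NE libraries. NE replicate 3 lay under Ctrl replicate 3, so the groups overlapped, although the adjusted p was 0.0296 (log2 difference 0.83, SE 0.27). Without Ctrl replicate 3 the log2 difference was 1.10, and it no longer passed without any 1 of Ctrl replicates 1 and 2 and NE replicates 1 and 2 (0.575 to 0.806). SLC7A2 (CAT2), an inducible carrier of arginine and other cationic amino acids, read 139, 150 and 174 in Ctrl and 243, 255 and 232 in NE libraries. It rose 1.57-fold with no overlap (log2 difference 0.66, adjusted p = 0.00615). SLC7A1 (CAT1), the main cationic carrier of most cells, was far more abundant than SLC7A2, with 22.2 against 1.09 FPKM in Ctrl, and had means of 3074 ± 142 and 3158 ± 443 normalized counts (log2 difference 0.03, 95% interval -0.24 to 0.30, adjusted p = 0.848).

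SLC7A6 (y+LAT2), which exchanges arginine for neutral amino acids, read 396, 406 and 352 normalized counts in Ctrl and 316, 295 and 277 in NE libraries. It fell 1.30-fold without overlap (log2 difference -0.38, adjusted p = 0.0378), and it passed with a library left out only when that was Ctrl replicate 3. It overlaps SLC7A6OS on the opposite strand, which had a log2 difference of -0.58 (adjusted p = 0.0149), and whether counting used strand is not stated. SLC7A7 (y+LAT1) was near the minimum with means of 12.0 and 15.1 normalized counts (adjusted p = 0.553). SLC7A9, the light chain of the renal cystine carrier, passed the minimum only through its NE libraries, with 4.19, 7.26 and 12.7 in Ctrl and 24.7, 21.3 and 9.14 in NE libraries. Its groups overlapped, and its log2 difference was 1.10 (adjusted p = 0.138) with Ctrl replicate 3 and 1.46 (adjusted p = 0.039) without it. SLC7A8, SLC7A10 and SLC7A13 were unexpressed.

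The SLC1 family had 4 listed members, 3 expressed. SLC1A5 (ASCT2), which exchanges glutamine and other neutral amino acids with sodium, read 2848, 2877 and 3424 normalized counts in Ctrl and 1671, 1647 and 1426 in NE libraries. All NE libraries lay below all Ctrl libraries and the level was 1.93-fold lower (log2 difference -0.95, SE 0.12, adjusted p = 0.000333). Ctrl replicate 3 was here farther from the NE libraries than the other Ctrl libraries were. SLC1A5 spans 46774883 to 46788594 of chromosome 19, minus strand.

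SLC1A1 (EAAT3), a glutamate and cysteine carrier, read 63.9, 53.9 and 97.0 normalized counts in Ctrl and 133, 119 and 92.3 in NE libraries. NE replicate 3 fell under Ctrl replicate 3, and the adjusted p was 0.0476 (log2 difference 0.70, SE 0.26), the weakest call among the members that passed, and lost without any 1 of Ctrl replicates 1 and 2 and NE replicates 1 and 2. SLC1A4 (ASCT1), a carrier of serine and alanine, did not pass (log2 difference 0.05, adjusted p = 0.759). SLC1A3, a glial glutamate carrier, was unexpressed.

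The SLC6 family had 11 listed members, 7 expressed, most of them at low levels. SLC6A17 (NTT4), a carrier of neutral amino acids known from synaptic vesicles of neurons, read 154, 208 and 248 normalized counts in Ctrl and 615, 538 and 539 in NE libraries. Every NE library was more than 2 times the highest Ctrl library. The means were 203 ± 47.2 and 564 ± 44.1 (SD, n = 3 each), 2.77-fold higher in NE, with a log2 difference of 1.49 (SE 0.18, 95% interval 1.08 to 1.90, adjusted p = 0.000314). It spans 110150494 to 110202202 of chromosome 1, plus strand. An antisense gene inside it, ENSG00000235526, averaged 5.11 normalized counts in Ctrl and 20.2 in NE libraries (log2 difference 1.73, adjusted p = 0.017). It passed the minimum only through its NE libraries, which favours a higher call, and reads of the pair cannot be told apart if strand was not used.

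With all libraries, the other expressed SLC6 members did not pass. SLC6A15, a carrier of branched-chain amino acids and proline, read 243, 191 and 289 normalized counts in Ctrl and 314, 295 and 334 in NE libraries. The NE libraries were all higher, and the adjusted p was 0.0775 (log2 difference 0.40), whereas without Ctrl replicate 3 the gene passed, at 0.544 (adjusted p = 0.00461). SLC6A8, the creatine transporter, read 253, 230.2 and 221 in Ctrl and 208, 229.5 and 244 in NE libraries, with overlap and a log2 difference of -0.05. SLC6A6, the taurine transporter, had -0.04, SLC6A16, an orphan carrier, 0.52 and SLC6A20, a proline carrier, 0.29, with adjusted p of 0.844, 0.21 and 0.603, and SLC6A20 had -0.133 (adjusted p = 0.767) without Ctrl replicate 3. SLC6A9 (GLYT1), the glycine transporter, read 38.7, 43.6 and 4.90 in Ctrl and 13.8, 20.3 and 16.4 in NE libraries. A single library decided it, since its log2 difference was -0.31 (adjusted p = 0.743) with Ctrl replicate 3 and -1.25 (adjusted p = 0.00789) without it. Among the unexpressed SLC6 members, SLC6A4, the serotonin transporter, was at 0 in all Ctrl libraries and at 3.95, 3.87 and 1.83 in NE libraries. SLC6A7, SLC6A12 and SLC6A13 were also unexpressed.

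Both listed SLC36 members, carriers linked to amino acid sensing at lysosomes, were expressed. SLC36A4 read 73.3, 72.6 and 98.97 normalized counts in Ctrl and 168, 178 and 143 in NE libraries. The groups did not overlap, and the log2 difference of 0.997 (SE 0.20, adjusted p = 0.00284) fell just short of the fold criterion. Without Ctrl replicate 3 it was 1.14 and the gene was called. SLC36A1 was the more abundant, at 786, 759 and 929.96 in Ctrl and 818, 706 and 669 in NE libraries, with overlap and a log2 difference of -0.17 (adjusted p = 0.292).

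Of the SLC43 family, which moves large neutral amino acids without sodium or exchange, both listed members were expressed. SLC43A2 (LAT4) read 242, 233 and 205 normalized counts in Ctrl and 148, 135 and 95.9 in NE libraries. It was 1.80-fold lower with no overlap (log2 difference -0.86, SE 0.19, adjusted p = 0.00551). SLC43A1 (LAT3) was scarce, with means of 45.999 and 47.5 normalized counts, and had a log2 difference of 0.07 (95% interval -0.52 to 0.65, adjusted p = 0.846).

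**Figure D2:**
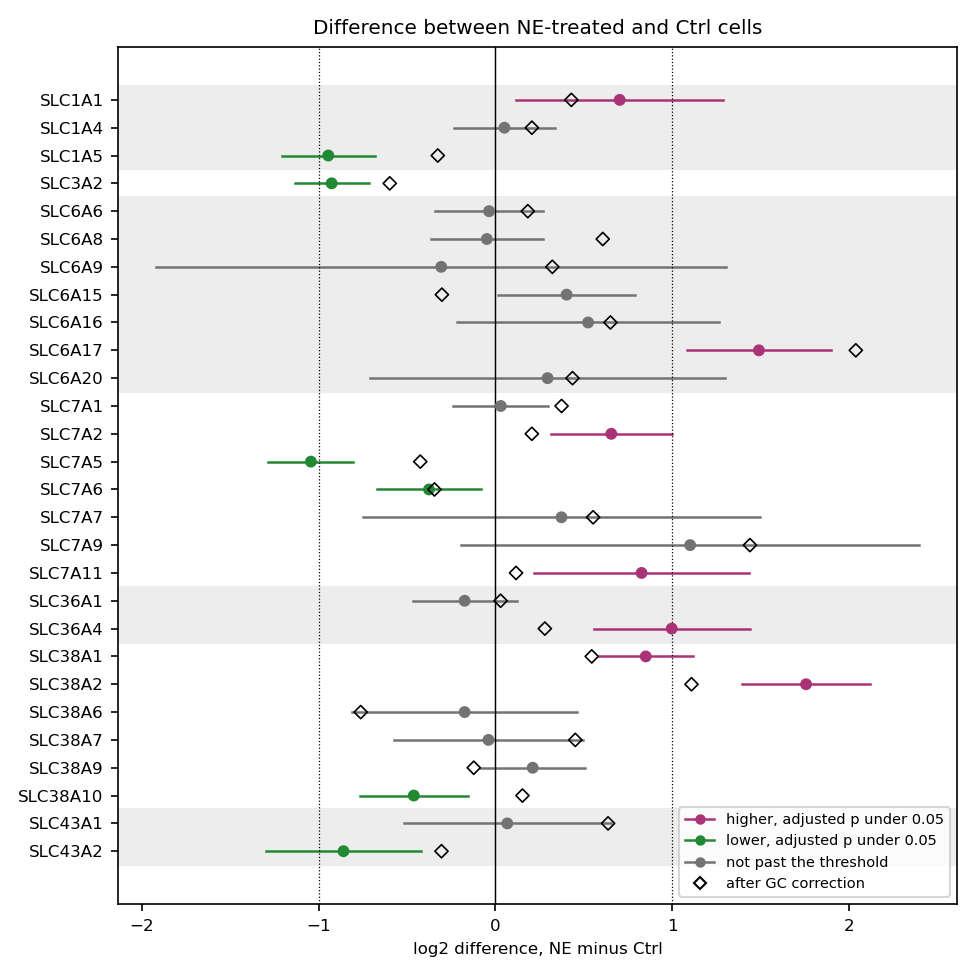
Log2 difference between NE-treated and Ctrl cells for the 28 expressed members, with filled points and 95% intervals from limma and open diamonds for the value after correction for GC content. Dotted lines mark a log2 difference of 1 in either direction. SLC38A2 and SLC6A17 lie beyond the upper line with either value, and SLC7A5 lies beyond the lower line only before the correction.

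Over the members as a group, the NE libraries lay wholly above the Ctrl libraries for 6 members and wholly below for 6, and the groups overlapped for 16. The 12 members without overlap were 42.9% of those expressed, against 58.6% of all genes tested (29.7% NE higher and 28.9% NE lower). With 3 libraries a group, an exact permutation test of a single gene cannot go below 0.1. By family, the median log2 differences were 0.05 in SLC1, 0.29 in SLC6, 0.37 in SLC7, 0.41 in SLC36, 0.09 in SLC38 and -0.40 in SLC43. SLC36 and SLC43 had only 2 expressed members each, and the SLC7 median was the value of SLC7A7, which was near the minimum. After the GC correction the medians were 0.21 in SLC1, 0.44 in SLC6, 0.21 in SLC7, 0.15 in SLC36, 0.30 in SLC38 and 0.17 in SLC43, so that of SLC43 changed sign.

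Levels were compared between genes per length, as FPKM, recomputed here from the recovered reads, the merged exon length and the reads on genes of each library. In the Ctrl libraries the mean FPKM was 79.4 for SLC38A2, 61.7 for SLC7A5, 50.9 for SLC1A5, 34.9 for SLC38A1, 28.9 for SLC3A2 and 22.2 for SLC7A1. With SDs of 21.9 for SLC38A2 and 1.42 for SLC7A5, the top places of this order were close, and in Ctrl replicates 1 and 2 SLC38A2 and SLC7A5 were almost level. In the NE libraries SLC38A2 reached 288 ± 3.49 (SD, n = 3), followed by SLC38A1 at 68.7 ± 3.26, SLC7A5 at 32.9 ± 2.08, SLC1A5 at 28.9 ± 1.57, SLC7A1 at 25.0 ± 2.43 and SLC3A2 at 16.7 ± 1.23. The ranges of SLC1A5 and SLC7A1 were near each other there, while SLC38A2 and SLC38A1 stood apart from the rest. Merged exons count every annotated exon, which lowers the FPKM of genes with long models. The median of all tested genes was itself 0.13 higher on the log2 FPKM scale in the NE libraries.

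As a share of the summed FPKM of the 28 members, SLC38A2 made up 21.4%, 21.4% and 28.1% in the Ctrl libraries and 54.7%, 55.3% and 56.1% in the NE libraries. SLC38A1 and SLC38A2 together made up 31.5%, 31.7% and 39.0% in Ctrl and 68.3%, 68.2% and 69.2% in NE libraries. SLC7A5, SLC3A2 and SLC1A5, the exchangers with the shared heavy chain and ASCT2, went from 44.2%, 44.02% and 39.9% to 15.0%, 15.3% and 15.0%. By FPKM without a GC correction, the make-up of the transporter transcripts was thus nearly the same in the 3 NE libraries and different from that of every Ctrl library. The summed FPKM was 313, 311 and 373 in Ctrl and 534, 517 and 511 in NE libraries. SLC38A2 to SLC7A5, per length, was 1.06, 1.08 and 1.74 in Ctrl and 8.29, 8.80 and 9.21 in NE libraries. These groupings were chosen after the values were seen and are given without a test. The shares and ratios were not corrected for GC content, and the log2 differences behind them shrank with that correction. SLC38A2 went from 1.76 to 1.11, SLC7A5 from -1.04 to -0.43 and SLC1A5 from -0.95 to -0.33, where SLC1A5 no longer passed (adjusted p = 0.151).

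**Figure D3:**
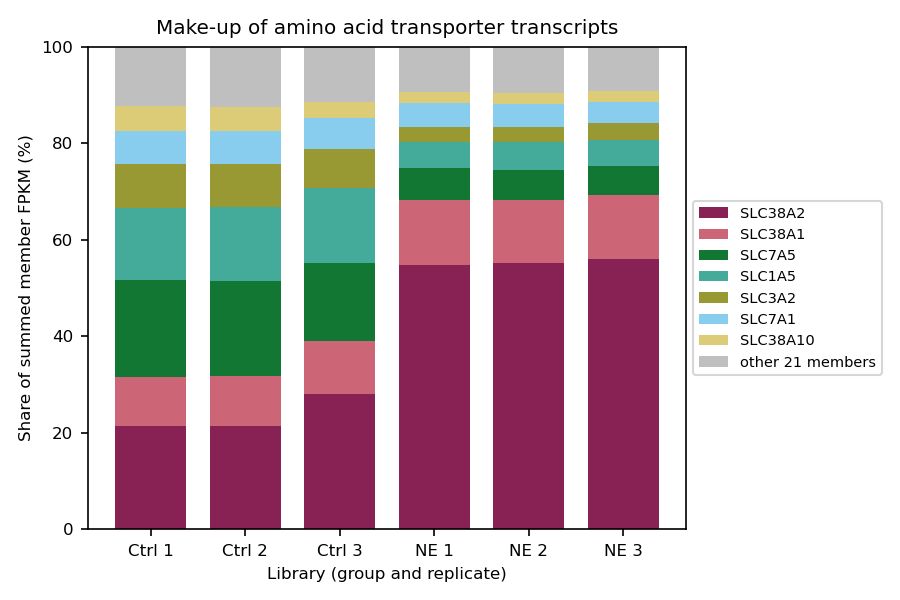
Share of the summed FPKM of the 28 expressed members held by each of the 7 most abundant and by the other 21 together, in percent, for each library. SLC38A2 widens from 21.4% to 28.1% in the Ctrl libraries to 54.7% to 56.1% in the NE libraries, while the SLC7A5, SLC1A5 and SLC3A2 bands narrow. The FPKM are not corrected for GC content.

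GC content moved with these results. Across the 28 members, the Spearman correlation of exon GC content with the log2 difference was -0.592, and it was -0.644 across 14955 genes, with lower-GC genes higher in the NE libraries. These are correlations across genes measured in the same libraries and are given as a description. Among the members that rose, SLC38A2 had 37.6% GC, SLC38A1 43.7%, SLC36A4 35.0% and SLC7A11 35.4%, and among those that fell SLC7A5 had 61.1%, SLC1A5 61.2% and SLC43A2 58.4%. SLC6A17, at 58.2%, was higher in the NE libraries although its GC content was among the high ones. After the GC trend of each library was removed, SLC38A2 had a log2 difference of 1.11 (adjusted p = 3.7e-05), SLC6A17 2.04 (adjusted p = 0.000206), SLC38A1 0.54 (adjusted p = 0.00198), SLC3A2 -0.60 (adjusted p = 0.00126), SLC7A5 -0.43 (adjusted p = 0.0202) and SLC7A6 -0.34 (adjusted p = 0.0459). These 6 kept their direction and stayed past the adjusted p, and only SLC38A2 and SLC6A17 passed the fold criterion, so that 2 members were called higher and 0 lower with it, against 3.67% and 2.31% of 14955 genes.

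The others past the adjusted p, SLC38A10 among them, lost it with the correction. SLC1A5 had -0.33 (adjusted p = 0.151), SLC43A2 -0.31 (adjusted p = 0.238), SLC36A4 0.28 (adjusted p = 0.199), SLC7A2 0.21 (adjusted p = 0.279), SLC1A1 0.43 (adjusted p = 0.195) and SLC7A11 0.12 (adjusted p = 0.669). SLC6A8 came to 0.61 (adjusted p = 0.00702) and SLC6A15 to -0.30 (adjusted p = 0.118), each opposite to its uncorrected sign. SLC38A6 came to -0.76 (adjusted p = 0.0343). In all, 4 members were then higher and 4 lower by the adjusted p, against backgrounds of 14.5% and 17.7%. Whether the GC trend came from the preparation of the libraries or from the cells was not tested.

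Ctrl replicate 3 differed from the mean of the other Ctrl libraries by more than these differed from each other in 25 of the 28 members. In 11 of the 13 members past the adjusted p it lay toward the NE libraries, and the exceptions were SLC1A5 and SLC3A2. Without it, 5 members were called higher and 2 lower with the fold criterion, beside backgrounds of 10.7% and 10.1%, and 10 rose and 8 fell by the adjusted p alone, beside 31.8% and 32.6%. SLC38A2 then had a log2 difference of 1.96 and SLC7A5 of -1.08. Since the Ctrl libraries left were close to each other, the adjusted p without Ctrl replicate 3 may be too small.

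The wider pathway was read from gene lists, each beside the 50.1% of all tested genes past the adjusted p. These lists were chosen with earlier results of these data known, so their shares are descriptions. With the GC correction, the background was 14.5% higher and 17.7% lower. Of 15 other amino acid carriers, 1 rose and 3 fell (26.7%), whereas 3 rose and 1 fell with the GC correction. SLC16A10, the aromatic amino acid carrier TAT1, had a log2 difference of 0.65 (adjusted p = 0.0358), which the GC correction took to 0.10 (adjusted p = 0.784). SLC25A22, a mitochondrial glutamate carrier, had -1.19 and was the only one past the fold criterion. With the GC correction SLC25A22 came to -0.52 (adjusted p = 0.00234), short of that criterion. Of 32 genes of amino acid synthesis and breakdown, 7 rose and 17 fell, a larger share than the background. After the GC correction 2 rose and 14 fell. CTH, which makes cysteine from cystathionine, was 3.56-fold higher (log2 difference 1.85, adjusted p = 0.000264), with 107, 83.0 and 145 normalized counts in Ctrl and 347, 389 and 455 in NE libraries. PYCR1 (-1.01) and PYCR3 (-1.34), which make proline, were lower by log2 difference. So were BCAT2 (-1.09), which transaminates branched-chain amino acids, and CBS (-1.21), which makes cystathionine. With the GC correction PYCR1 (-0.35, adjusted p = 0.0484), PYCR3 (-0.72, adjusted p = 0.000886) and BCAT2 (-0.49, adjusted p = 0.00366) fell short of the fold criterion. CBS lost its call with it (-0.61, adjusted p = 0.0889). ASNS, asparagine synthetase, was 1.79-fold higher (log2 difference 0.83, adjusted p = 0.0177), and it too lost its call with the correction (0.49, adjusted p = 0.132). Of 20 cytosolic aminoacyl-tRNA synthetases, 5 rose and 11 fell (80.0%), with VARS1 at -1.06 (-0.43, adjusted p = 0.0406, after the GC correction). The GC correction left 1 of them higher and 11 lower.

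The 16 genes of the integrated stress response, the pathway by which amino acid shortage acts through GCN2 and ATF4, split into 5 that rose and 5 that fell (62.5%). After the GC correction 4 rose and 1 fell. ATF4 itself read 4125, 4265 and 2939 normalized counts in Ctrl and 2029.7, 2424 and 2890.3 in NE libraries, 1.54-fold lower (log2 difference -0.62, adjusted p = 0.015), and after GC correction its difference was -0.09 (adjusted p = 0.593). DDIT4, an inhibitor of mTORC1, was higher (log2 difference 1.26, and 1.82 after the GC correction). EIF2AK3, the kinase PERK, was also higher (1.10, and 0.58, adjusted p = 0.0106, after the correction). PPP1R15A, which reverses the response, was lower (-1.39). It read 1392, 1315 and 435 normalized counts in Ctrl and 297, 345 and 429 in NE libraries, so Ctrl replicate 3 lay close to NE replicate 3. With the GC correction PPP1R15A came to -0.88 (adjusted p = 0.0576) and did not pass. SESN2, a leucine sensor, was lower (-0.70, adjusted p = 0.00205) but not after the correction (-0.11, adjusted p = 0.415), and CHAC1, which breaks down glutathione, did not pass (-0.40, adjusted p = 0.136). Of 33 genes of amino acid sensing upstream of mTORC1, 6 rose and 13 fell (57.6%). SESN3 had 1.21 (0.58, adjusted p = 0.0613, after the correction). LAMTOR2 and LAMTOR4, subunits of the Ragulator, had -1.02 and -1.03. After the correction they had -0.58 and -0.52 (adjusted p of 0.0134 and 0.0123). The correction left 2 of the list higher and 6 lower.

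Of 14 regulators of transporter abundance, 7 rose and 3 fell (71.4%). The balance turned with the GC correction, when 3 rose and 4 fell. SGK1, a kinase that keeps several carriers at the membrane, was 2.20-fold higher (log2 difference 1.14, adjusted p = 6e-05), and NFE2L2 (NRF2), an activator of SLC7A11, was 2.53-fold higher (log2 difference 1.35, adjusted p = 9.8e-05). MYC, an activator of SLC7A5 and SLC1A5, read 3546, 3405 and 2639.95 normalized counts in Ctrl and 1094, 1260.05 and 1364 in NE libraries, 2.58-fold lower (log2 difference -1.36, adjusted p = 0.000165). RNF5, a ubiquitin ligase of SLC1A5 and SLC38A2, had -1.07, and NEDD4L, a ubiquitin ligase of several carriers, did not pass (0.19, adjusted p = 0.247). With the GC correction SGK1 had 0.78 (adjusted p = 0.000229), NFE2L2 0.95 (adjusted p = 6.11e-05), MYC -1.09 (adjusted p = 9.89e-05) and RNF5 -0.71 (adjusted p = 0.00218). Of these, only MYC then passed the fold criterion. Of 9 genes of the cystine and glutathione axis, 2 rose (GCLC at 0.76 and GCLM at 0.75) and 2 fell (GPX4 at -0.91 and GSS at -0.78), or 44.4%. With the GC correction GCLC stayed past the adjusted p, at 0.51, while GCLM came to 0.14 (adjusted p = 0.304) and GPX4 to -0.23 (adjusted p = 0.316) and neither passed. The list then had 1 gene higher and 2 lower. The lower ones were GSS (-0.52, adjusted p = 0.00148) and CD44 (-0.32, adjusted p = 0.0234), which had not passed before the correction (0.08, adjusted p = 0.544).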

How the data were processed

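The 6 RNA-seq libraries of NCI-H1299 cells, 3 Ctrl and 3 NE, were grouped by the sample labels. The submitters' processing notes name HISAT2 2.0.5, hg38 and featureCounts 1.5.0-p3, and the authors ran DESeq2. FPKM are described in the methods, whereas the deposited signal proved to be counts per gene over a library's size factor (0.955 to 1.09), since 100% of values were whole reads within 0.01 of a read. The libraries held 16852751 to 17979206 reads on genes. Without molecular identifiers, the true error can exceed counting error. Whether counting used strand is not given in the sources used here.

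Values were compared as log2(value + 1) with limma 3.58.1 (lmFit, eBayes with trend) in R 4.3.3, over 15013 genes with a mean of at least 10, with Benjamini-Hochberg adjusted p. Calls needed an adjusted p under 0.05, alone or with an absolute log2 difference of at least 1. Fold changes are ratios of group means, and log2 differences are on the log2(value + 1) scale, which understates the change of low genes. FPKM were recomputed from the recovered reads and the merged exons of GENCODE v44, and 25813 of 26025 genes had a symbol, length and GC content. The GC correction fitted each library's log2 values with a natural spline of 5 degrees of freedom and subtracted it.

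Members, gene lists, markers and motifs were chosen with earlier results of these data known. All expressed members are described, with the value in every library for those past either call and the most abundant of each family. List genes are named where past both thresholds, with ATF4, ASNS, CHAC1, MYC, SESN2, NEDD4L and SGK1 whatever their value. A few others (SLC16A10, GCLC, GCLM, GPX4, GSS, CD44) were named after their values were seen. Alternatives were other pseudocounts and minimums, quantile scaling, 3 count tests on the recovered reads (voom, DESeq2 1.42.0 and edgeR 4.0.16), eBayes without trend, corrections for GC content and length, a replicate block and each library left out. Scripts were tested on simulated data. A comparison of protein sequences was planned and not run. Some genes examined are not reported here.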

Additional observations from a re-analysis of the deposited data

How the results depend on the processing

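Of the 28 expressed members, SLC38A2 (log2 difference 1.09 to 2.09), SLC38A1 (0.451 to 1.12), SLC6A17 (1.30 to 2.04) and SLC3A2 (-0.955 to -0.598) stayed past the adjusted p in all 19 alternatives, and SLC7A5 (-1.12 to -0.425) in 18, with an adjusted p of 0.0557 in the other, the replicate block with the GC correction. SLC1A5, SLC36A4, SLC43A2 and SLC7A2 passed in 16 each, SLC38A10 and SLC7A6 in 11, SLC7A11 in 10 and SLC1A1 in 6.

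With the GC correction, the median log2 difference of the members was 0.243, no member was lower by fold (0) and 4 rose by the adjusted p. With GC content and length it was 0.179, with 0 lower by fold, 4 higher and 3 lower by the adjusted p. With quantile normalization 0 members were lower by fold. At a mean of at least 50, 22 members were tested and their median was -0.00267. The genes past the adjusted p were 5 of the stress response and 8 of the mTORC1 sensing list with the GC correction, and 14 of synthesis and breakdown, 4 of the stress response and 7 of mTORC1 sensing with GC content and length. Of all genes, 14.5% were higher and 17.7% lower by the adjusted p with the GC correction. A pseudocount of 0.5 or no minimum gave 3 members higher by fold. The cause was not tested.

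Same-numbered libraries deviated from their group means with correlations of -0.163, 0.08 and -0.151, so no shared deviation was seen. These cannot show whether same-numbered libraries were prepared together. With the replicate block, 2 members were higher and 1 lower by fold, 5 rose and 5 fell by the adjusted p, and 2 of the other carriers passed. With the replicate block and the GC correction, the median was 0.243, 0 members were lower by fold, 4 rose and 1 fell by the adjusted p, and the lists had 11 (synthesis and breakdown), 8 (tRNA synthetases), 4 (stress response), 8 (mTORC1 sensing), 5 (regulators) and 2 (cystine and glutathione) genes past it.

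With each library left out in turn, members higher by fold numbered 2 to 5, lower 0 to 2, higher by the adjusted p 5 to 10, lower 4 to 8 and without overlap 12 to 20, and the median was 0.054 to 0.132. The 20 without overlap came without Ctrl replicate 3, and any gene separates more easily when a library is left out. Without Ctrl replicate 3 the fold calls were 5 and 2, beside 10.7% and 10.1% of all genes. Without NE replicate 3 they were 4 and 0, with SLC7A5 at -0.975. The lists had 13 to 26 (mTORC1 sensing), 19 to 29 (synthesis and breakdown), 4 to 6 (cystine and glutathione), 12 to 19 (tRNA synthetases), 8 to 13 (stress response), 2 to 6 (other carriers) and 8 to 12 (regulators) genes past the adjusted p. Beyond the main fit, shares over all genes are given only without Ctrl replicate 3 and with the GC correction. Counts under the other alternatives lack that background and show only how far the results moved.

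Signs turned for SLC43A1 with quantile normalization (-0.0239). They turned with the GC correction, with or without the replicate block, for SLC38A10 (0.153), SLC6A15 (-0.303), SLC38A9 (-0.123), SLC6A9 (0.322), SLC36A1 (0.0293), SLC38A7 (0.452), SLC6A8 (0.607) and SLC6A6 (0.183). With GC content and length the values were 0.0378 for SLC38A10, -0.434 for SLC6A15, -0.201 for SLC38A9, 0.282 for SLC6A9, 0.374 for SLC38A7, 0.537 for SLC6A8 and 0.0863 for SLC6A6. With a library left out, ranges that crossed 0 were SLC6A9 -1.25 to 0.207, SLC38A7 -0.351 to 0.127, SLC6A8 -0.101 to 0.0122, SLC6A6 -0.108 to 0.0565, SLC43A1 -0.0294 to 0.253, SLC38A6 -0.429 to 0.0901, SLC6A20 -0.133 to 0.605, SLC1A4 -0.0566 to 0.137 and SLC7A1 -0.0772 to 0.119.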
